A study of Mus musculus with 8 samples.

Results

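AP-1 is a transcription factor made of pairs of basic leucine zipper proteins, and the genes described here are 8 of the 31894 genes with an identifier in the count table: *Fos*, *Fosb*, *Fosl1*, *Fosl2*, *Jun*, *Junb*, *Jund* and *Atf3*. They were selected on the comparison of E-cad LO with E-cad HI tumor cells within each mouse, in which *Fosl1* was among the genes whose level was higher in E-cad LO most regularly, and the others were added as its family. The values of that comparison therefore chose the members, and they are given as a description with no test. All 8 passed the filter on low counts, which left 13598 genes. A Fos protein cannot pair with itself and binds DNA as a heterodimer with a Jun protein, while Jun proteins can also pair with each other and with ATF proteins. Most of these genes are induced within minutes by growth factors, stress kinases or tissue handling, and *Fosl1*, which encodes FRA-1, is induced later and is known from invasive and mesenchymal-like breast cancer cells.

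The cells came from a mouse model of breast cancer brain metastasis (BCBM). Tumor cells of the PyMT mammary model carried the E-cadherin reporter E-cad-mCFP and were labelled with H2B-Dendra2. They had been enriched for growth in the brain by serial intracranial injection. Organoids were derived after the last round, and the tumors of this model grew from such organoids, so the libraries share that origin. Tumors grown in FVB mice, with genotype wild type and tissue brain metastasis tumor in the labels, were minced on ice and then digested warm with enzymes, and live single cells positive for Dendra2 were separated by FACS. Cells positive for CFP were E-cad HI and cells negative for CFP were E-cad LO. The sort was checked for purity on E-cad HI cells alone. No further treatment, time point or animal age is given in the labels. Bulk RNA sequencing gave 8 libraries, 1 of each population from mice 57, 58, 67 and 70, with total counts of 11885351 to 14931731 in E-cad HI and 9108575 to 15780531 in E-cad LO.

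Transcripts of the sort marker itself did not separate the groups. *Cdh1*, which encodes E-cadherin, was at 114, 132, 93.5 and 108 CPM (counts scaled to library size by TMM) in E-cad HI of mice 57, 58, 67 and 70, and at 71.6, 181, 84.5 and 59.2 CPM in E-cad LO. It was lower in E-cad LO in 3 mice and higher in mouse 58, and the groups overlapped. *Epcam*, an epithelial adhesion gene, was at 1130 to 1340 CPM in E-cad HI and at 290 to 1100 CPM in E-cad LO, without overlap. It does not stand for all epithelial genes. Of 11 epithelial tumor markers 4 had a positive and 7 a negative log2 fold change, with 1 higher and 2 lower in 4 of 4 mice. Some libraries stood apart before any comparison. E-cad HI of mouse 58 had counts for 25216 genes, against 17081 to 21179 in the other libraries, and E-cad LO of mouse 57 held 497 CPM of the collagen gene *Col1a1*, against 1.4 to 8.53 CPM elsewhere. Mitochondrial genes took 1.75%, 4.07%, 1.84% and 4.7% of the counts in E-cad HI of mice 57, 58, 67 and 70 and 1.88%, 5.32%, 4.61% and 7.16% in E-cad LO, a higher share in E-cad LO in 4 of 4 mice. *Gm42418* took 14.4% in E-cad LO of mouse 58 and 2.23% to 7.67% in the other libraries. The part of RNA quality in the AP-1 values was not tested. Normalization without *Gm42418* and mitochondrial genes gave a log2 fold change of 2.92 for *Fosl1*, 2.17 for *Atf3* and 1.48 for *Junb*.

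*Fosl1* transcripts were scarce in E-cad HI cells and several-fold more abundant in E-cad LO cells. Its level was 3.35, 2.07, 2.75 and 4.65 CPM in E-cad HI of mice 57, 58, 67 and 70, from 27 to 53 reads a library, and 31.2, 15.8, 30.5 and 17.4 CPM in E-cad LO, from 136 to 453 reads. Every E-cad LO library lay above every E-cad HI library, with mice 57 and 67 high and mice 58 and 70 lower within E-cad LO. The means were 3.21 ± 1.1 and 23.7 ± 8.25 CPM (SD, n = 4 each). Computed on CPM + 0.5, the fold difference between both populations of an animal was 8.25 for mouse 57, 6.34 for mouse 58, 9.54 for mouse 67 and 3.47 for mouse 70. The fitted log2 fold change was 2.89 ± 0.38 (SE), and without 1 mouse at a time it ranged from 2.71 to 3.26.

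*Fosl1* (ENSMUSG00000024912) lies on chromosome 19 at 5447703 to 5455945 in the coordinates of the table, build GRCm38. In the GENCODE M21 annotation of that build, 57.2% of its exon bases are also covered by *Ccdc85b* on the opposite strand, although the table draws the 2 genes apart. The strand setting of the counting is not given in the sources used here, so reads of *Ccdc85b* could have been counted as *Fosl1*. *Ccdc85b* was at 9.76, 10.5, 9.81 and 15.3 CPM in E-cad HI and at 16.9, 17.2, 10.4 and 29.6 CPM in E-cad LO of mice 57, 58, 67 and 70. Its within-mouse log2 ratios were 0.77, 0.68, 0.08 and 0.93, beside 3.04, 2.66, 3.25 and 1.8 for *Fosl1*.

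*Atf3*, a stress-induced ATF family gene whose protein pairs with Jun proteins and often represses, was the next in size of difference. It was at 97.5, 79.4, 44.1 and 75.2 CPM in E-cad HI of mice 57, 58, 67 and 70, and at 568, 219, 351 and 162 CPM in E-cad LO. The groups did not overlap, and mouse 57 was the highest in both. Means were 74 ± 22.2 and 325 ± 180 CPM (SD, n = 4 each), a fitted log2 fold change of 2.13 ± 0.4 (SE). As for *Fosl1*, the ratio within a mouse was largest in mouse 67, at 7.89-fold, and smallest in mouse 70, at 2.14-fold.

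**Figure D1:**
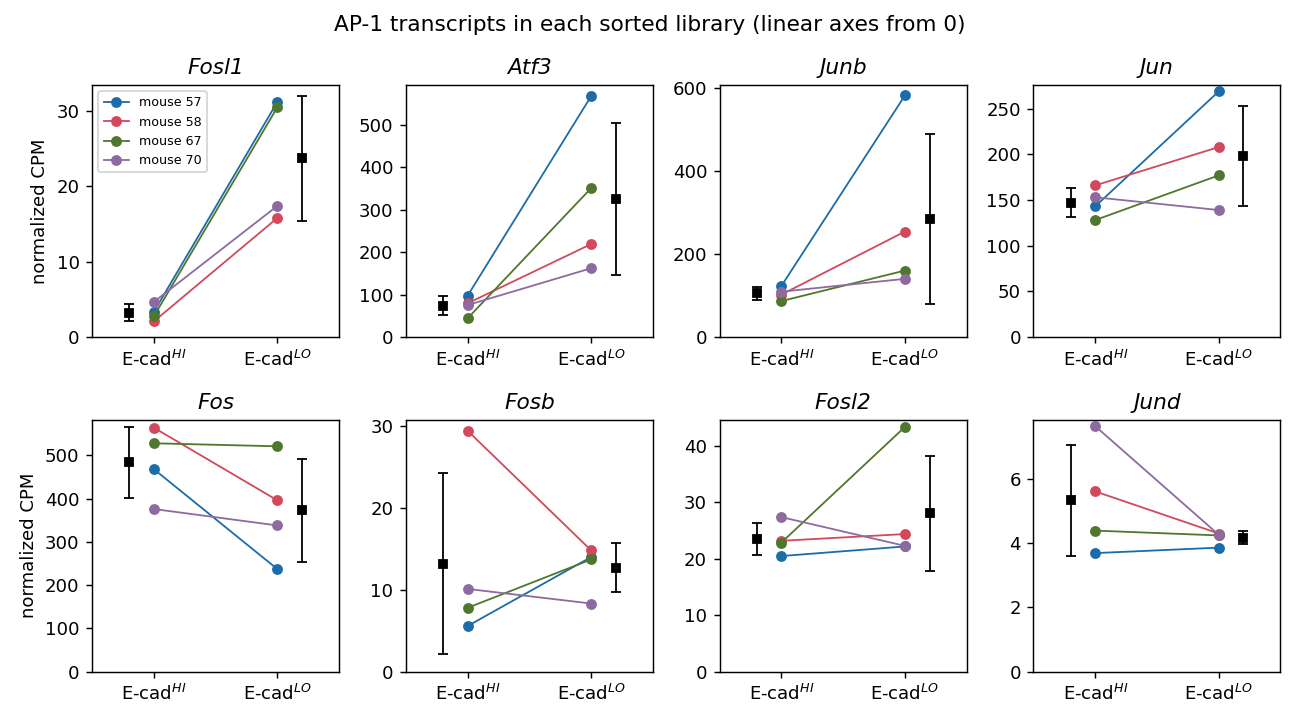
Normalized CPM of the 8 AP-1 genes, on linear axes from 0, in the 4 E-cad HI libraries and the 4 E-cad LO libraries. Colored points joined by a line are the libraries of 1 mouse and black squares are the mean with SD of 4 libraries, with *Fosl1*, *Atf3* and *Junb* the genes whose groups did not overlap.

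The Jun genes, whose proteins are the obligate partners of Fos proteins, differed among themselves. *Junb* was at 123, 102, 86.4 and 109 CPM in E-cad HI and at 582, 254, 160 and 140 CPM in E-cad LO of mice 57, 58, 67 and 70. The groups did not overlap, but the gap was small, since E-cad LO of mouse 70 was only slightly above E-cad HI of mouse 57. Its within-mouse log2 ratios were 2.24, 1.31, 0.89 and 0.36 for mice 57, 58, 67 and 70, and the fitted log2 fold change of 1.43 ± 0.42 (SE) ranged from 0.88 without mouse 57 to 1.7 without mouse 70. A stretch of 7.52% of its exon bases is shared with *Prdx2* on the other strand, and *Prdx2* was lower in E-cad LO, with a log2 fold change of -0.4.

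*Jun* was at 143, 166, 128 and 153 CPM in E-cad HI and at 269, 208, 177 and 139 CPM in E-cad LO in the same order of mice. It was higher in E-cad LO in 3 mice and lower in mouse 70, and the groups overlapped. The fitted log2 fold change was 0.43 ± 0.21 (SE), and 7.28% of its exon bases are shared with the antisense gene *Junos*, which was at 1.05 to 5.45 CPM. *Jund*, often the constitutive Jun gene, was at 3.69 to 7.64 CPM in E-cad HI and 3.86 to 4.3 CPM in E-cad LO. Its groups overlapped, it was higher in E-cad LO in 1 mouse and lower in 3, and the log2 fold change was -0.35 ± 0.37 (SE). Because 52.6% of its exon bases are shared with the antisense gene *Gm11175*, which was not analysed here, the *Jund* level is uncertain.

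*Fos*, the founding and fastest induced gene of its family, had the opposite direction to *Fosl1*. It was at 468, 564, 528 and 376 CPM in E-cad HI and at 237, 396, 521 and 338 CPM in E-cad LO of mice 57, 58, 67 and 70. Its within-mouse log2 ratios were -0.98, -0.51, -0.02 and -0.15 in that order, negative in 4 of 4 mice but close to 0 in mice 67 and 70, and the groups overlapped. The fitted log2 fold change was -0.38 ± 0.25 (SE).

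*Fosb*, an immediate early gene like *Fos*, had no common direction. It was at 5.58, 29.4, 7.8 and 10.1 CPM in E-cad HI and at 14, 14.8, 13.7 and 8.32 CPM in E-cad LO of mice 57, 58, 67 and 70, higher in E-cad LO in 2 mice and lower in 2. Its log2 fold change of -0.06 ± 0.51 (SE) had the opposite sign with mouse as a replicate block (0.21) and without mouse 58 (0.64), and was -0.38 without mouse 57. *Fosl2*, which encodes FRA-2, was at 20.5 to 27.4 CPM in E-cad HI and 22.2 to 43.4 CPM in E-cad LO. The high value was that of mouse 67, and without that mouse the log2 fold change of 0.26 ± 0.26 (SE) became -0.03, against 0.44 without mouse 70.

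**Figure D2:**
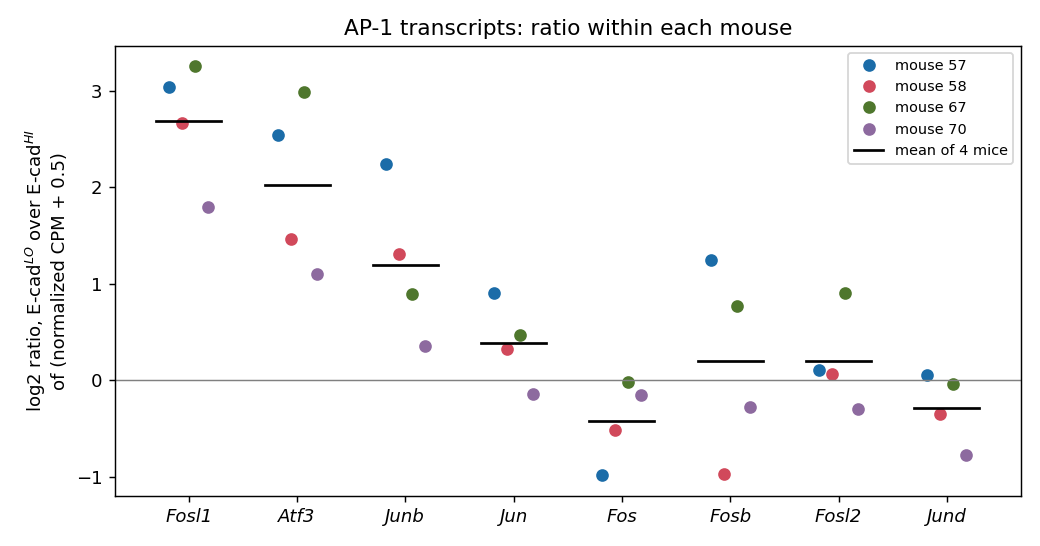
Log2 ratio of E-cad LO over E-cad HI, computed on normalized CPM + 0.5, for each AP-1 gene in each of 4 mice, with the mean as a black line. *Fosl1* (1.8 to 3.25), *Atf3* (1.1 to 2.98) and *Junb* (0.36 to 2.24) were above 0 in each mouse, *Fos* (-0.98 to -0.02) was below 0, and the other 4 genes had both signs.

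Read over the whole family, 3 of 8 members (*Fosl1*, *Atf3* and *Junb*) were higher in E-cad LO in 4 of 4 mice, where 16.8% of the genes tested were, and 1 of 8 (*Fos*) was lower in 4 of 4, where 14.2% were. The same 3 had groups without overlap and E-cad LO above, as did 3.9% of all genes tested, and 0 of 8 had groups without overlap and E-cad LO below, as did 4.2%. The median log2 fold change of the 8 was 0.34, beside 0.06 for all genes tested, of which 55.1% had a positive value. Mouse 70 had the lowest log2 ratio of the 4 mice for *Fosl1*, *Atf3*, *Junb*, *Jun*, *Fosl2* and *Jund*. In the fit across all genes with edgeR's quasi-likelihood test and a Benjamini-Hochberg threshold of 0.05, 0 genes (0%) were called higher and 0 (0%) lower, and calls are not given for the members, since this comparison chose them. At an unadjusted p under 0.05 the same test had 1109 genes higher and 790 lower, and DESeq2 called 292 higher (2.15%) and 56 lower (0.412%). With mouse as a replicate block, edgeR called 99 genes higher, which is 0.728% of those tested, and 0 genes lower (0%), with 1671 higher and 997 lower at an unadjusted p under 0.05. DESeq2 with the block called 1029 higher (7.57%) and 222 lower (1.63%). Leaving out mouse 57, 58, 67 or 70, that count of 99 became 425, 63, 0 and 2. In that order edgeR without the block had 713, 1176, 630 and 1113 genes higher at an unadjusted p under 0.05. It had 323, 843, 319 and 722 lower. With the block these counts were 1601, 1835, 1031 and 1220 higher and 797, 888, 374 and 756 lower.

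Levels were compared between genes as CPM per kb of exon, which corrects for gene length. Exon bases shared with another gene, 57.2% for *Fosl1* and 52.6% for *Jund*, were not taken out. The place and share of these genes on this scale are therefore uncertain. In E-cad HI the mean level in CPM per kb was highest for *Fos* at 206 ± 34.9 (SD, n = 4), and its range did not reach that of *Jun* at 46.1 ± 5.01. *Jun*, *Junb* (45.7 ± 6.66) and *Atf3* (34.4 ± 10.3) overlapped as neighbours on this scale. Far below, *Jund* (3.2), *Fosl2* (2.43), *Fosb* (2.12) and *Fosl1* (1.58) followed in mean CPM per kb, each overlapping the next. *Fosl1* was last in E-cad HI by mean only. In mouse 58 *Fosb* was at 4.71 and *Fosl1* at 1.02 CPM per kb, and in the other 3 mice *Fosb* was the lower of the pair.

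In E-cad LO the order of mean CPM per kb was *Fos* (159 ± 50.4), *Atf3* (151 ± 83.7), *Junb* (123 ± 89) and *Jun* (62.1 ± 17.2), each overlapping the next, then *Fosl1* at 11.7 ± 4.06 (SD, n = 4). *Fosl1* was apart from both neighbours, below *Jun* and above *Fosl2* (2.9 ± 1.06), which overlapped *Jund* (2.5) as *Jund* did *Fosb* (2.03). Even there it remained a small part of the AP-1 transcripts. *Fosl1* made up 2.12%, 1.69%, 2.81% and 2.53% of the summed CPM per kb of the 8 genes in E-cad LO of mice 57, 58, 67 and 70, and 0.471%, 0.266%, 0.41% and 0.759% in E-cad HI.

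*Fos* held the largest share of that sum in each E-cad HI library. Its share was 57%, 62.4%, 68% and 53% in E-cad HI of mice 57, 58, 67 and 70, and 13.9%, 36.5%, 41.5% and 42.5% in E-cad LO, without overlap. Shares of a sum are tied, so higher levels of *Atf3* and *Junb* lower that of *Fos*. In CPM the *Fos* groups overlapped, at 376 to 564 in E-cad HI and 237 to 521 in E-cad LO. The share of *Atf3* was 6.2% to 13% in E-cad HI and 22.1% to 36.4% in E-cad LO, also without overlap, while that of *Jun* was 12.1% to 15.9% and 10.4% to 14.1%. The sum itself was 301 to 384 CPM per kb in E-cad HI and 338 to 724 in E-cad LO, so the groups overlapped, but without *Fos* it was 106 to 150 and 194 to 623. The ratio of *Fos* to *Fosl1* in CPM per kb was 69.8 to 235 in E-cad HI and 6.57 to 21.6 in E-cad LO.

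**Figure D3:**
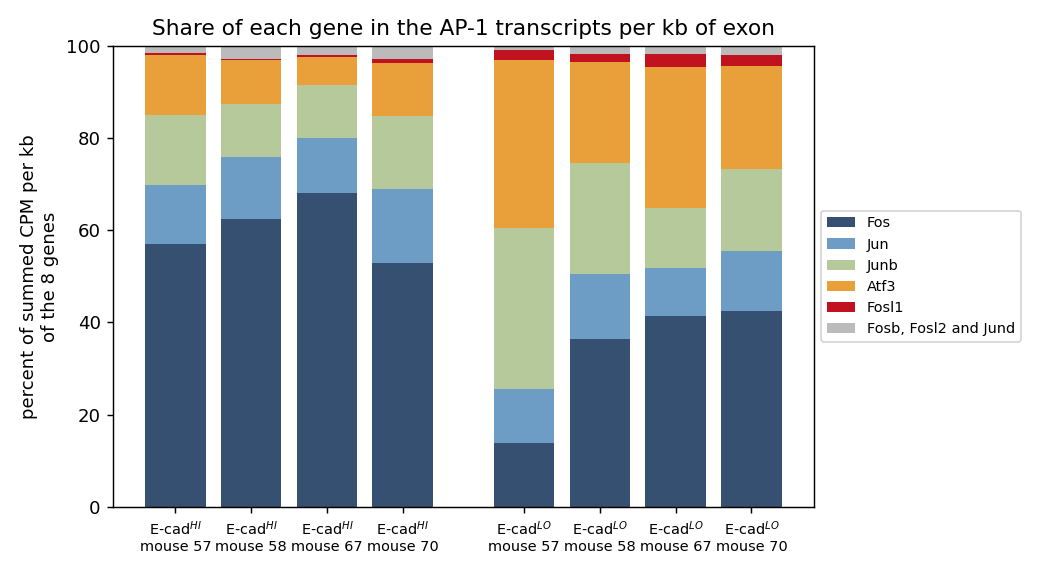
Share of each gene, in percent, in the summed CPM per kb of exon of the 8 AP-1 genes in each library. *Fos* took 53% to 68% in E-cad HI and 13.9% to 42.5% in E-cad LO, where *Atf3* took 22.1% to 36.4% and *Fosl1* 1.69% to 2.81%.

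The 6 tested genes outside the family whose profile was nearest to that of *Fosl1*, by the root mean square difference of centred log2(CPM + 0.5) over 8 libraries, were *Rnd1* (0.41), *Slc25a33* (0.43), *Hbegf* (0.47), *Popdc2* (0.47), *Cd209c* (0.47) and *Gm26815* (0.5). *Rnd1* was at 0.488 to 1.32 CPM in E-cad HI and 3.21 to 7.5 CPM in E-cad LO. *Slc25a33*, a mitochondrial carrier gene, was at 3.05 to 6.5 and 13.5 to 29.1 CPM. In *Popdc2* and *Cd209c* the E-cad HI libraries held at most 3 reads each, which is the floor of this depth. Inside the family, *Atf3* was the nearest to *Fosl1* with a difference of 0.55, ahead of *Junb* (0.94), *Jun* (1.22), *Fosl2* (1.3), *Fosb* (1.51), *Jund* (1.55) and *Fos* (1.67), where the median of all genes tested was 1.48.

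Genes described as AP-1 targets, among them proteases, growth factor ligands and adhesion genes, were mostly at higher values in E-cad LO. Of 30 listed, 22 were tested, and edgeR without the block called 0 higher and 0 lower (0% and 0% of all genes tested), against 14 and 1 at an unadjusted p under 0.05 (1109 and 790 of all 13598) and 7 and 0 called by DESeq2 (2.15% and 0.412% of all). With the block edgeR called 1 higher and 0 lower (0.728% and 0% of all), against 11 and 1 at an unadjusted p under 0.05 (1671 and 997 of all) and 8 and 0 called by DESeq2 (7.57% and 1.63% of all). This list and those below were chosen with earlier results of these data known, so their counts are a description and give no independent support. *Mmp10* and *Mmp12* passed the filter mainly through E-cad LO libraries. Of the 22, 20 had a positive and 2 a negative log2 fold change, where 55.1% of all genes tested were positive. In 4 of 4 mice 13 were higher and 1 lower, where 16.8% and 14.2% of all were. The median log2 fold change was 1.81, beside 0.06 for all genes tested, and with the block 1.49, beside 0.03. For some targets the difference lay mainly in mouse 57. In mice 57, 58, 67 and 70 the within-mouse log2 ratios were 5.61, 0.22, 0.12 and 0.16 for *Itga5*. They were 5.14, 0.31, 0.29 and 0.81 for *S100a4*, against 2.71, 1.46, 2.03 and 1.34 for *Hbegf*. The called gene was *Hbegf*, which encodes an EGF receptor ligand. It was at 21.7, 22.6, 24.2 and 27.6 CPM in E-cad HI and at 145, 62.8, 100 and 70.7 CPM in E-cad LO of mice 57, 58, 67 and 70, without overlap and higher in 4 of 4 mice. Its log2 fold change was 1.98 (adjusted p = 0.115, edgeR) and with the block 1.9 (adjusted p = 0.0311, edgeR), and the adjusted p ranged from 2.87e-09 to 0.68 over 17 fits of edgeR and DESeq2. Without mouse 58, 67 or 70 in the fit with the block it was 0.0525, 0.31 and 0.126.

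The target genes with the highest log2 fold change among those higher in 4 of 4 mice were *Axl*, a receptor tyrosine kinase (4.22), and the metalloproteinases *Mmp10* (4.14) and *Mmp12* (3.54), none of them called by edgeR over 4 mice with or without the block. The log2 fold change of *Axl* was 1.35 without mouse 57, 5.95 without mouse 70 and 2.91 with the block, and that of *Mmp10* was 1.59 without mouse 57 and 8.13 without mouse 70, where the E-cad HI libraries left held 0, 1 and 3 reads, at or under the floor of 3 counts. *Mmp12* was called by DESeq2 (adjusted p = 0.0107, and 3.89e-07 with the block) and by edgeR with the block without mouse 57 (adjusted p = 0.0111), over a range of 3.89e-07 to 0.68 in its fits. In E-cad HI of mice 57, 58, 67 and 70 it had 0, 3, 9 and 29 reads. Those of mice 57 and 58 were at or under that floor, so no conclusion is drawn from these calls. The log2 fold change of *Mmp12* was 3.1 without mouse 58, 4.76 without mouse 70 and 4.21 with the block. *Axl* was at 313 CPM in E-cad LO of mouse 57 and at 9.65 to 28.3 CPM in the other E-cad LO libraries, against 0.488 to 14.1 CPM in E-cad HI, so its groups overlapped. *Mmp10* had the same shape, with 84.6 CPM in E-cad LO of mouse 57 and 0.814 to 14 CPM in the others. *Mmp12*, known as the macrophage elastase, was at 0 to 2.55 CPM in E-cad HI and 4.31 to 14.9 CPM in E-cad LO. *Ccnd1*, the cyclin D1 gene, was lower in 4 of 4 mice, at 209 to 308 CPM in E-cad HI and 160 to 191 CPM in E-cad LO.

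The genes that act on AP-1 or pair with its subunits gave no common direction. Among 12 other basic leucine zipper genes 9 were tested, 6 had a positive and 3 a negative log2 fold change (55.1% of all genes tested were positive) with a median of 0.64, and edgeR called 0 of them in either direction with or without the block. At an unadjusted p under 0.05 it had 4 higher and 0 lower without the block and 2 higher and 1 lower with it, and DESeq2 called 1 higher without and 2 with the block. Of all 13598 genes tested, 1109 were higher at an unadjusted p under 0.05 without and 1671 with the block, edgeR called 0% and 0.728% higher, and DESeq2 2.15% and 7.57%. At that p 790 of all genes were lower without and 997 with the block. *Mafk*, a small Maf gene, was at 36.9 to 39.4 CPM in E-cad HI and 54.8 to 95.2 CPM in E-cad LO, without overlap, and *Atf7* was at 35.6 to 79.6 and 29.4 to 59.4 CPM. The 23 kinases, phosphatases, serum response factors and ubiquitin ligase parts that act upstream were all tested, with 12 positive and 11 negative values, a median of 0.02, and 0 called in either direction in both edgeR fits, where 4 were higher without the block, 5 with it and 0 lower at an unadjusted p under 0.05, and DESeq2 called 1 higher without and 3 with the block, beside the same 1109 and 1671 of all 13598 genes at that p and 2.15% and 7.57% called by DESeq2. The phosphatase gene *Dusp10* (1.11 to 2.37 and 4.3 to 14.1 CPM), the ETS factor gene *Elk3* (5.37 to 8.92 and 9.54 to 54) and the JNK gene *Mapk10* (0.139 to 11.5 and 1.86 to 47.2) had the highest log2 fold changes, and *Rps6ka1* (49.1 to 62.5 and 18.1 to 49.1) and *Mapk14* (35.9 to 47.6 and 26.2 to 36.9) the lowest, of those with 1 direction in 4 mice with no tolerance. In mouse 58 *Rps6ka1* was at 49.1 CPM in both libraries, and *Mapk3* had the same rounded log2 fold change as *Mapk14* (-0.29). The highest *Elk3* value was that of E-cad LO of mouse 57, and without that mouse its log2 fold change of 1.59 became 0.42, against 1.98 without mouse 67. That of *Rps6ka1* (-0.5) was -0.27 without mouse 57 and -0.67 without mouse 58.

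Immediate early genes outside the Fos and Jun families, which are also induced by tissue dissociation, were mostly at higher values in E-cad LO too. Of 26 listed, 25 were tested, 24 had a positive and 1 a negative log2 fold change with a median of 0.6, where 55.1% of all genes tested were positive with a median of 0.06. In 4 of 4 mice 9 were higher and 0 lower, where 16.8% and 14.2% of all genes were, and edgeR called 0 in either direction with or without the block. At an unadjusted p under 0.05 edgeR had 9 higher and 0 lower both without and with the block, and DESeq2 called 4 higher without the block and 8 with it, where of all genes tested 1109 and 1671 of 13598 were higher at that p and DESeq2 called 2.15% and 7.57% higher. *Cyr61*, a matricellular gene, was at 190 to 322 CPM in E-cad HI and 263 to 1390 CPM in E-cad LO. *Klf4* (0.52 to 1.67 and 2.01 to 5.39 CPM) and *Arc* (0.906 to 1.77 and 1.62 to 11.6 CPM) were low throughout. The part of these genes in the *Fosl1*, *Atf3* and *Junb* values was not tested.

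Markers of brain and stromal cells were mostly at higher values in E-cad LO, with exceptions among genes and mice. Of all genes tested 55.1% had a positive log2 fold change, edgeR called 0% higher without the block and 0.728% with it (1109 and 1671 of 13598 at an unadjusted p under 0.05), and DESeq2 2.15% and 7.57%. Of 16 microglia and macrophage markers 16 were higher in log2 fold change, with 0 called by edgeR without the block (8 at an unadjusted p under 0.05, 6 called by DESeq2) and 5 with it (15 at an unadjusted p under 0.05, 13 called by DESeq2), and their summed level was 39.2, 97, 133 and 313 CPM in E-cad HI and 284, 249, 897 and 1110 CPM in E-cad LO of mice 57, 58, 67 and 70. Oligodendrocyte markers, 7 of 8 higher without the block, with 0 called by edgeR without it (0 at an unadjusted p under 0.05, 0 called by DESeq2) and 2 with it (7 at an unadjusted p under 0.05, 6 called by DESeq2), summed to 554, 1620, 959 and 8590 CPM in E-cad HI and 1310, 3790, 4290 and 34400 CPM in E-cad LO, led by *Mbp*, the myelin basic protein gene, which reached 20100 CPM in E-cad LO of mouse 70.

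The counts of the next 3 lists stand beside 55.1% of all genes positive, 0% and 0.728% called higher by edgeR without and with the block, and 2.15% and 7.57% by DESeq2. At an unadjusted p under 0.05, 1109 of all 13598 genes were higher without the block and 1671 with it. Astrocyte markers were 8 of 8 higher without the block, with 0 called by edgeR without it (1 at an unadjusted p under 0.05, 1 called by DESeq2). With the block edgeR called 3 (7 at an unadjusted p under 0.05, 6 called by DESeq2). Their sum was 1150, 1150, 1310 and 3560 CPM in E-cad HI. For E-cad LO the sum was 723, 1460, 1980 and 9880 CPM, lower than its E-cad HI partner in mouse 57 only. The list was led in mean CPM by *Aldoc*, whose log2 fold change of 0.47 was -0.31 with the block. The lower sum in mouse 57 came from *Aldoc*, which fell there from 1000 to 124 CPM. In that mouse *Gja1* rose from 127 to 536 CPM, *Slc1a2* from 4.88 to 23.9 and *Slc1a3* from 3.69 to 23.9. *Gfap*, *S100b* and *Aldh1l1* were also higher there, and *Aqp4* was lower (0.627 to 0.371 CPM). Neuron markers, 8 of 8 higher without the block, with 0 called by edgeR without it (1 at an unadjusted p under 0.05, 0 called by DESeq2) and 1 with it (7 at an unadjusted p under 0.05, 6 called by DESeq2), summed to 3.69, 56.6, 20.3 and 92.5 CPM and to 24.9, 135, 129 and 376 CPM, led in mean CPM by *Snap25*. Fibroblast and mural markers, 11 listed and 8 of 8 tested higher, with 0 called by edgeR without the block (5 at an unadjusted p under 0.05, 0 called by DESeq2) and 0 with it (4 at an unadjusted p under 0.05, 2 called by DESeq2), summed to 9.34, 18.6, 9.88 and 67.7 CPM in E-cad HI and to 1200, 28.4, 61.9 and 197 CPM in E-cad LO, led in mean CPM by *Col1a1* through E-cad LO of mouse 57 (497 CPM). In E-cad LO of mice 58, 67 and 70 *Col1a1* was at 2.68, 3.77 and 8.53 CPM and the mural gene *Rgs5* at 5.12, 38.8 and 135 CPM. E-cad LO of mouse 57 had the highest sum of that list and the highest *Atf3*, *Junb*, *Axl* and *Mmp10*. *Fosl1* was at 31.2, 15.8, 30.5 and 17.4 CPM in E-cad LO of mice 57, 58, 67 and 70, where the sums were 1200, 28.4, 61.9 and 197 CPM. A link between these values was not tested. Without mouse 57 the log2 fold change was 2.73 for *Fosl1*, 1.87 for *Atf3* and 0.88 for *Junb*.

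For the remaining lists the shares of all genes called lower were 0% by edgeR without and with the block and 0.412% and 1.63% by DESeq2, beside the shares called higher given above. At an unadjusted p under 0.05, 790 of all 13598 genes were lower without the block and 997 with it, beside 1109 and 1671 higher. Endothelial markers, 8 listed and 6 of 6 tested higher, with 0 called by edgeR without the block (1 at an unadjusted p under 0.05, 0 called by DESeq2) and 0 with it (1 at an unadjusted p under 0.05, 1 called by DESeq2), summed to 41.9, 41.7, 76.6 and 69.3 CPM in E-cad HI and to 57.8, 77.1, 97.1 and 103 CPM in E-cad LO, led by *Flt1*. Neutrophil markers summed to 15.8 to 25 CPM and 6.84 to 26.6 CPM, led by *S100a8*, with 2 of 7 tested, 1 higher and 1 lower, 0 called by edgeR or DESeq2 without or with the block (1 lower at an unadjusted p under 0.05 in both edgeR fits), and *Retnlg* under 3 counts in every library. Epithelial tumor markers, 4 of 11 higher and 7 lower, with 0 called by edgeR without the block (1 lower at an unadjusted p under 0.05, 0 called by DESeq2) and 0 with it (3 lower at an unadjusted p under 0.05, 1 called lower by DESeq2), summed to 10600, 8110, 11000 and 9510 CPM in E-cad HI and to 6010, 9780, 14800 and 8360 CPM in E-cad LO, led by *Krt18*, so the sorted E-cad LO libraries held epithelial transcripts at a level that overlapped that of E-cad HI. No marker of these lists was at 0 in all 8 libraries. The cells had been sorted as live and positive for Dendra2, the part of other cell types in the AP-1 values was not tested, and in bulk RNA fewer cells of a type and less RNA per cell cannot be told apart.

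Promoter sequences were examined because *Fosl1*, *Atf3* and *Junb* were higher together in E-cad LO in each mouse. The RefSeq table for GRCm38.p6, which gives 250 bases before each gene's start and 50 after it, held 7 of the 8 members, *Fosl1* being the missing entry. The classical AP-1 element TGANTCA, read on both strands, was in 0 of 7 member promoters and in 7.81% of all 32851 promoters, and the cAMP response element TGACGTCA was in 0 of 7 and in 1.79%. The variant TGACATCA was in 1 of 7 and in 3.62%, and its match in *Jun* was given by the choice of letters, a form known from the *Jun* promoter. TGACGT, which is part of the cAMP response element, was in 2 of 7 (*Atf3* and *Fos*) and in 7.51%. The stretches below lie just before the RefSeq start, which for *Atf3* is inside the gene as the table draws it (191170296 to 191218039), with the match in capitals, at chr4:95052234-95052293 on the minus strand, chr1:191183334-191183393 on the minus strand, and chr12:85473798-85473857 on the plus strand.
Jun: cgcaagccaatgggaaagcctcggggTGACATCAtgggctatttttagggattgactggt
Atf3: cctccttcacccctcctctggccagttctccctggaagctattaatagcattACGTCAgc
Fos: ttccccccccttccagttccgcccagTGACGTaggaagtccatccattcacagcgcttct
The *Jun* match lies 45 to 38 bases before the start, the *Atf3* match, read as ACGTCA on the strand of the gene, 8 to 3 bases before it, and the *Fos* match 66 to 61 bases before it. A match describes these letters only.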

How the data were processed

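The deposited table holds raw counts per gene for 8 libraries, which the authors made from single-end TruSeq mRNA reads mapped to mouse GRCm38. The submitters' processing notes name HISAT2 2.1.0 and HTSeq, while the study's methods name Icount as the counter, and the strand setting is not given in the sources used here. Rows without a gene identifier (365 rows, 0.0636% to 0.0954% of a library) were left out. Floors of 3 counts equal 0.202 to 0.349 CPM and cover counting error only. The SD and SE given also hold the spread between mice.

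Libraries were normalized by TMM on the 13598 genes kept by filterByExpr and tested with edgeR 4.0.16 (quasi-likelihood, Benjamini-Hochberg, R 4.3.3). DESeq2 1.42.0, size factors, filters, a robust fit, normalization without *Gm42418* and mitochondrial genes, a replicate block and leaving out each mouse were the alternatives. Fit and tests were tested on simulated data, where a larger share of the calls was false with DESeq2 than with edgeR. Those shares are not given here. Within-mouse ratios used CPM + 0.5. The libraries of a mouse came from 1 animal, as the mouse number in the labels shows, and deviations from group means correlated at 0.352, 0.275, 0.309 and 0.698 within mice 57, 58, 67 and 70, and at most at 0.153 between mice. Mice are separate animals. The p-values without the block set the difference against the spread between mice within a group and ignore the pairing. Those with the block set it against the spread of the within-mouse difference. No libraries agreed within sampling noise (chi-square per degree of freedom at least 19.1). Exon lengths came from GENCODE M21 and promoters from RefSeq GRCm38.p6.

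The members and the lists (AP-1 partners, upstream regulators, AP-1 targets, immediate early genes and cell type markers) were chosen with earlier results of these data known. Genes named were the 8 members, the called genes of each pathway list up to 6, the 3 highest and 2 lowest fold changes with 1 direction in 4 of 4 mice, and the 6 profiles nearest to *Fosl1*. *Cdh1*, *Epcam*, *Itga5*, *S100a4*, genes that share exon bases with a member and the most abundant markers were named after their values were seen. The values of 1 marker gene are not reported here.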

Additional observations from a re-analysis of the deposited data

Results flagged for a closer look

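Among 24 groups of 4 values (each member's CPM in E-cad HI, its CPM in E-cad LO and its ratio within a mouse), 2 had a sample far from the other 3. Chance alone flags about 1 in 20 such groups. *Fosl2* in E-cad LO of mouse 67 was at 43.4 CPM, where the other E-cad LO libraries were at 22.2, 24.4 and 22.3 CPM, and *Jund* in E-cad LO of mouse 57 was at 3.86 CPM, where the others were at 4.3, 4.24 and 4.26 CPM. The *Jund* values rest on 37 to 63 reads a library, so that gap is smaller than the counting error.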

How the results depend on the processing

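Over 17 fits the log2 fold change was 2.69 to 3.26 for *Fosl1*, 1.71 to 2.38 for *Atf3* and 0.83 to 1.7 for *Junb*, and with the replicate block it was 2.88, 2.03 and 1.2. Genes called higher were 0 with edgeR, 292 with DESeq2, 23 without a filter, 3 with at least 10 counts in every library, 99 with the replicate block and 1029 by DESeq2 with the replicate block, and genes called lower were 0, 56, 0, 0, 0 and 222. DESeq2 size factors, a robust fit and normalization without *Gm42418* and mitochondrial genes left both edgeR counts at 0. Without 1 mouse at a time edgeR called 0 in both directions, and with the block 0 to 425 higher and 0 to 24 lower. The sign of *Fosb* (-0.06) turned to 0.21 with the replicate block, 0.24 by DESeq2 with the replicate block and 0.64 without mouse 58 (range without 1 mouse at a time -0.38 to 0.64), and with the block to -0.19 without mouse 57. *Fosl2* ranged from -0.03 without mouse 67 to 0.44 without mouse 70, and with the block from -0.02 to 0.38. The cause was not tested. Of 224 alternative values for the members, 218 moved by less than the spread between mice with 1 sign, and pseudocounts of 0.1 and 2 CPM changed no sign. The same settings for named genes outside the family were added after the data were seen. At this depth *Fosl1* in E-cad HI rests on 27 to 53 reads, *Jund* on 37 to 87, so small differences in *Jund* were not detectable.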
